A study of Mus musculus with 12 samples.

Results

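The 35 genes described here encode the machinery of fatty acid oxidation in mitochondria and peroxisomes, with a few of its regulators, and were measured in the descending aorta of ageing mice. They were chosen by name from the gene probes of the array: 33 of the 35 genes were found under their own symbol, on 42 probes, and *Eci1* and *Eci2* were found through the accession of probes that carry the older names Dci and Peci. All 35 passed the filter on dim probes, among 16611 genes tested, and all were well above background on all 12 arrays with no saturated spot. Male C57BL/6 mice were compared at 20 months (n = 6) and at 6 months (n = 6), without any other treatment and on standard chow. Each mouse gave 1 array of total RNA from a vessel that, per the labels, had been flushed with saline and stripped of the surrounding fat. Values are log2 signals relative to the array's 75th percentile, so that 0 is the level of the probe at that percentile, and levels of different genes were not set against each other because each probe binds with its own strength.

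In mitochondrial fatty acid oxidation an acyl-CoA synthetase first joins the fatty acid to coenzyme A, and the carnitine shuttle (Cpt1, Slc25a20, Cpt2) carries the acyl group across the mitochondrial membranes. Chain-length-specific dehydrogenases and the trifunctional protein (Hadha, Hadhb) then shorten the chain turn by turn, releasing acetyl-CoA, while the electron transfer flavoprotein (Etfa, Etfb) and its dehydrogenase (Etfdh) hand the electrons to the respiratory chain. Peroxisomes hold a separate set of enzymes for very long and branched chains, whose opening step is an oxidase that makes hydrogen peroxide. Brown fat, which lies around the thoracic aorta of the mouse, burns fatty acids for heat and is rich in the mitochondrial enzymes.

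The sequences below compare the probes of closely related members. Each probe was set against the probe of the other gene and not against that gene's transcript, so binding to the other transcript was not tested. *Acaa1a* and *Acaa1b*, the thiolases that close the peroxisomal cycle, are closely related copies on chromosome 9, and *Acot1* (cytosolic) and *Acot2* (mitochondrial), thioesterases that split acyl-CoA, lie close together on chromosome 12. The probes of 60 bases for *Acaa1a* and *Acaa1b* matched at 22 of 60 bases in their best ungapped alignment, and those for *Acot1* and *Acot2* at 25 of 57, with a longest shared run of 6 bases in both pairs. The 30 bases of each probe around that run are given 5′ to 3′ with the run in capitals, at chr9:119259383-119259412 (+), chr9:119057326-119057355 (-), chr12:85358561-85358590 (+) and chr12:85334071-85334100 (+) of mm9, the build that the scanner files name.
Acaa1a: gggagggatgcagtAAATGTgtactgtctc
Acaa1b: gtgtcacagcactttaatttagaAAATGTa
Acot1: tctatGGAAACtggagctatccaagaaaag
Acot2: ggGGAAACctcatatatattatcacaatgt

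The subunits of the trifunctional protein are divergent neighbours. In RefSeq's GRCm38.p6 table the *Hadha* start site is at base 30154980 of chromosome 5 on the minus strand and the *Hadhb* start site at 30155253 on the plus strand, 273 bases apart. Their promoter windows, each running from 250 bases before to 50 after the start site, share 228 bases. The 250 bases before the *Hadhb* start (chr5:30155003-30155252, plus strand) are shown with the shared bases in capitals, because both subunits are described together in the results.
Hadhb: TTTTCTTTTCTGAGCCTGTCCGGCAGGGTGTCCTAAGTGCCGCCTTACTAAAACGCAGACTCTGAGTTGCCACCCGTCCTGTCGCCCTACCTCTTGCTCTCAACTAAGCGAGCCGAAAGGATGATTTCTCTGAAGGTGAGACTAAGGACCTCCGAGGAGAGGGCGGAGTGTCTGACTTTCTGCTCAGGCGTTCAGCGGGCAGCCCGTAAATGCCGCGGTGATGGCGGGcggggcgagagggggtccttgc

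PPARα, encoded by the member *Ppara*, is the receptor known to drive many of these genes in liver, and binds a direct repeat of AGGTCA with a single base between the repeats. Promoter windows were available for 31 members. None of the 31 held AGGTCA repeated after 1 base, the looser AGGNCA repeated after 1 base, or TCAAGGTCA (the motif of estrogen-related receptors) on either strand. Of all 27025 genes, 0.0481%, 0.451% and 0.466% held them, shares so low that 0 of 31 does not stand out. A single AGGTCA was in the windows of 4 of 31 members (12.9%), against 18.1% of all 27025 genes. Those 4 were *Acadm* (chr3:153944864-153944893, -), *Acadvl* (chr11:70015498-70015527, -), *Cpt1a* (chr19:3323195-3323224, +) and *Echs1* (chr7:140116487-140116516, -), and 30 bases around each match are given along the gene's strand with the motif, or its reverse complement, in capitals. A match or its lack describes only the letters in this window.
Acadm: gTGACCTtcgggctccggtgacactgggca
Acadvl: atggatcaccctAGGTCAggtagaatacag
Cpt1a: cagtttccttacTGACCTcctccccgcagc
Echs1: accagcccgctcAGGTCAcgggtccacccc

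The arrays had between 47.5% and 55.8% of gene probes well above background. The arrays lay on 3 slides with 2 of each age on every slide. All 20-month arrays were in column 3 of their slide and no 6-month array was, so age and column cannot be told apart. All 6 smooth muscle and all 5 endothelial markers passed the filter. So did all 9 brown adipocyte markers, on all 12 arrays, although the labels say that fat was removed. The mean of 10 heart muscle markers stood out at 3.23 in replicate 1 of the 20-month mice and at 2.08 in replicate 1 of the 6-month mice (log2, each marker centred on its mean over the arrays), and that of 5 T and NK cell markers at 1.37 in replicate 4 of the 6-month mice.

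No fatty acid oxidation gene passed the age test. With limma over all genes and Benjamini-Hochberg adjustment at 0.05, 0 of 35 members were called higher and 0 lower at 20 months, where 0.271% of all genes were called higher and 0.0542% lower, 0.325% together. None of the 35 had an unadjusted p under 0.05 and none had groups that did not overlap. Over all genes, 1332 of 16611 had an unadjusted p under 0.05 and 0.825% had groups that did not overlap. The fitted change was nonetheless negative for 32 of 35 members, against 9339 of 16611 genes. The median change was -0.18 over the members and -0.02 over all genes, and the members ranged from -0.62 for *Acsl5* to 0.20 for *Cpt1a*. Most members vary together between mice, so their signs are not separate observations. No marker of other cells was called with age, but some lists had a single sign. All 4 mesothelial markers were negative, with unadjusted p under 0.05 and a median of -2.28 (array means of -2.35 to 0.87 at 20 months against -0.12 to 2.55 at 6 months). At 20 months *Upk3b* and *Wt1* were well above background on 2 of 6 arrays and *Msln* and *Krt19* on 4. At 6 months *Wt1* was on 5 of 6 and the others on 6. The sizes and p-values of these markers thus rest partly on 20-month values near the floor. All 5 macrophage markers were positive, 2 with unadjusted p under 0.05 and a median of 0.24 (array means of 0.02 to 0.41 at 20 months against -0.42 to 0.17 at 6 months). The part of these cells in the members' changes was not tested. In whole tissue, fewer cells of a type and less RNA per cell cannot be told apart.

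**Figure D1:**
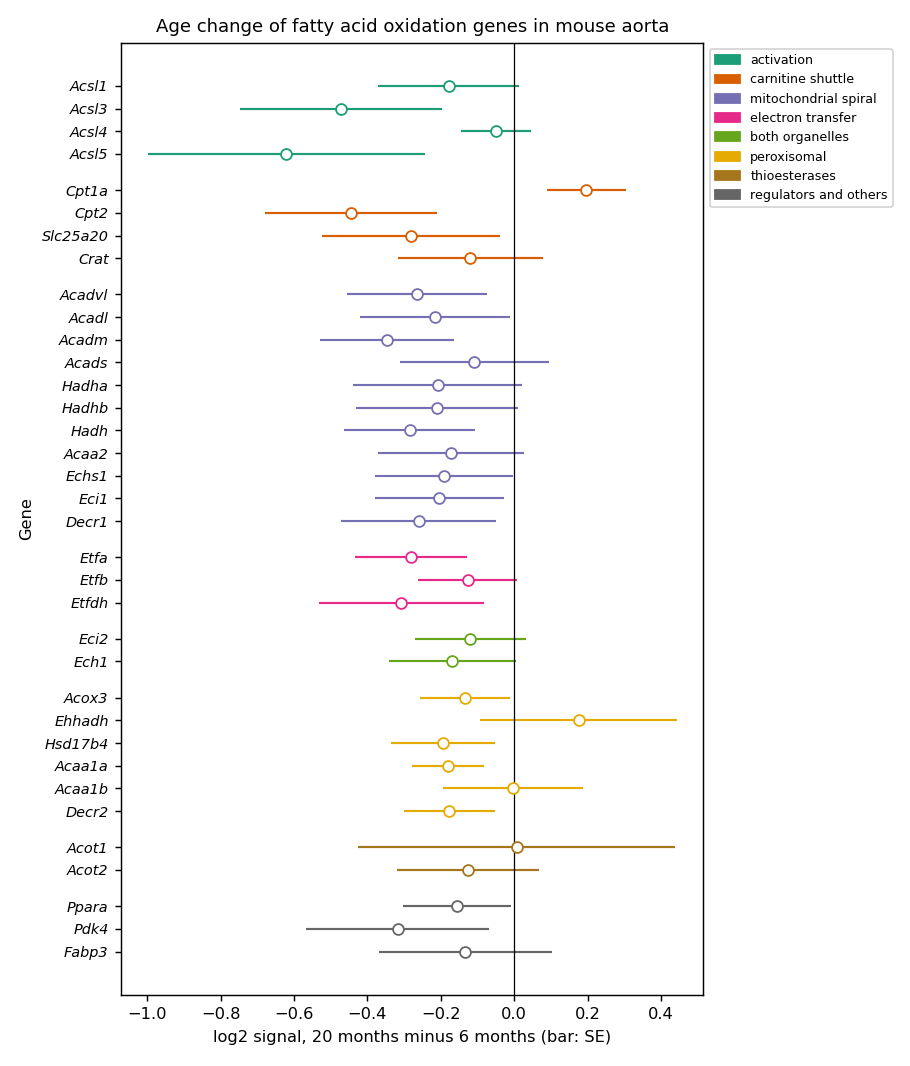
The log2 change of each of the 35 genes, 20 months minus 6 months (horizontal axis), is shown with its standard error from the limma fit, in the colour of the gene's role; open circles stand for genes with an adjusted p above 0.05, which all 35 are. Most circles lie left of 0, from -0.62 for Acsl5 to 0.20 for Cpt1a.

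The acyl-CoA synthetases, which activate fatty acids, had a median change of -0.33 with all 4 negative. *Acsl5*, which serves long chains, had a lowest, median and highest signal of 2.04, 2.56 and 4.26 at 20 months, against 2.62, 3.22 and 4.28 at 6 months. The groups overlapped over nearly their whole range because replicate 1 of the 20-month mice stood far above the other 20-month mice. Its change was -0.62 ± 0.38 (SE; adjusted p = 0.710), the most negative of the members. *Acsl3* gave -0.47 ± 0.28 (adjusted p = 0.692) from signals of -2.02 to -0.56 at 20 months against -1.51 to -0.13 at 6 months. *Acsl1*, the main synthetase of fat and heart, gave -0.18 ± 0.19, and *Acsl4*, which prefers arachidonic acid, gave -0.05 ± 0.09.

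The carnitine shuttle had a median change of -0.20, with 3 of 4 genes negative and *Cpt1a* positive. *Cpt1a*, the regulated entry step of the pathway in liver and many other tissues, had signals of 2.15, 2.60 and 2.75 (lowest, median, highest) at 20 months, against 2.07, 2.43 and 2.47 at 6 months. Every 20-month mouse except replicate 1 was above every 6-month mouse. The change was 0.20 ± 0.11 with an adjusted p of 0.675. *Cpt2*, which hands the acyl group back to coenzyme A inside the mitochondrion, had 4.23, 4.45 and 5.48 at 20 months, against 4.62, 4.99 and 5.69 at 6 months. Here 20-month replicate 1 was the highest of its group, and the change was -0.44 ± 0.23 (adjusted p = 0.675). The second *Cpt2* probe gave -0.33 and the second *Cpt1a* probe 0.05. *Slc25a20*, the carnitine-acylcarnitine carrier, gave -0.28 ± 0.24 and *Crat*, which buffers acetyl groups as acetylcarnitine, -0.12 ± 0.20.

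The 11 enzymes of the mitochondrial cycle were all negative, with a median of -0.21 and a range from -0.35 to -0.11 and standard errors from 0.18 to 0.23. *Acadm*, the medium-chain dehydrogenase, was the most negative at -0.35 ± 0.18 (adjusted p = 0.675). Its signals were 6.52, 6.86 and 7.46 at 20 months, against 6.83, 7.08 and 7.72 at 6 months, with the groups overlapping. The other dehydrogenases gave -0.26 for *Acadvl* (very long chains), -0.22 for *Acadl* (long chains) and -0.11 for *Acads* (short chains). *Hadha* (2.82, 3.19 and 4.0 at 20 months, against 2.90, 3.34 and 4.06 at 6 months) and *Hadhb* (6.67, 7.04 and 7.76 at 20 months, against 6.79, 7.14 and 8.03 at 6 months) gave the same change of -0.21, with standard errors of 0.23 and 0.22. The remaining enzymes were *Hadh* at -0.29 and *Decr1*, needed for unsaturated fatty acids, at -0.26, then *Eci1* at -0.20, *Echs1* at -0.19 and the thiolase *Acaa2* at -0.17.

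The electron transfer genes gave -0.31 ± 0.23 for *Etfdh*, -0.28 ± 0.15 for *Etfa* and -0.13 ± 0.14 for *Etfb*. *Etfa* had 6.44, 6.53 and 6.96 at 20 months, against 6.45, 6.80 and 7.31 at 6 months. *Eci2* and *Ech1*, isomerases found in both organelles, gave -0.12 ± 0.15 and -0.17 ± 0.17.

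Among the peroxisomal enzymes, *Hsd17b4*, the bifunctional enzyme for branched and very long chains, had 4.47, 4.64 and 5.15 at 20 months, against 4.70, 4.87 and 5.33 at 6 months (-0.19 ± 0.14, adjusted p = 0.758). *Ehhadh*, the other bifunctional enzyme and a well-known PPARα target in liver, had 0.85, 1.23 and 1.57 at 20 months, against 0.42, 0.93 and 2.32 at 6 months. The 6-month values enclosed the 20-month values, and the change was 0.18 ± 0.27 (adjusted p = 0.892). *Acaa1a* gave -0.18 ± 0.10, while its copy *Acaa1b* gave -0.003 ± 0.19. *Decr2*, the peroxisomal reductase for unsaturated chains, gave -0.18 ± 0.12, and *Acox3*, an oxidase of branched chains, -0.13 ± 0.12 with its second probe at -0.08.

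The thioesterase *Acot1* was the most variable member: it ran from -0.64 to 0.68 at 20 months against -1.0 to 2.07 at 6 months, and its change of 0.007 ± 0.43 has a wide error. *Acot2* gave -0.13 ± 0.19. *Ppara* had 4.08, 4.27 and 4.58 at 20 months, against 4.02, 4.42 and 4.80 at 6 months (-0.16 ± 0.15, adjusted p = 0.801). *Pdk4*, the kinase that shuts off pyruvate oxidation when fat is burned, gave -0.32 ± 0.25, with 4.53 in 20-month replicate 1 against 5.02 as the lowest value at 6 months. *Fabp3*, the fatty acid carrier of muscle, gave -0.13 ± 0.24, and its second probe gave -0.15.

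**Figure D2:**
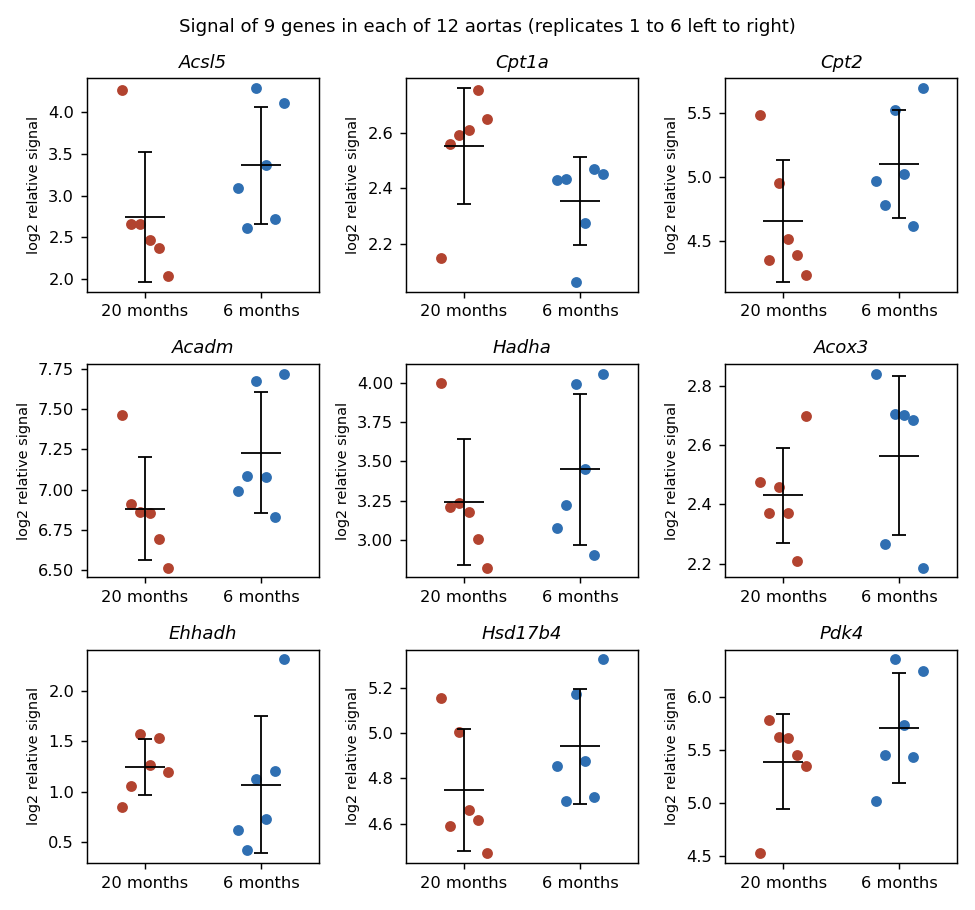
Log2 relative signal (vertical axis, scaled separately for each gene) of 9 genes in each mouse, with 20-month mice on the left of each panel and 6-month mice on the right, replicates 1 to 6 from left to right; the long bar is the mean and the whiskers the SD (n = 6). Replicate 1 at 20 months lies above the rest of its group for Acsl5, Cpt2, Acadm and Hadha and below it for Cpt1a and Pdk4.

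Set side by side, the 17 mitochondrial enzymes (carnitine shuttle without *Crat*, cycle and electron transfer) had a median change of -0.22, with 16 of 17 negative, and the 6 peroxisomal enzymes -0.16, with 5 of 6 negative. The medians differed by -0.06, a description without a test, and leaving out 1 mouse at a time moved this difference between -0.19 (without 6-month replicate 5) and 0.00073 (without 6-month replicate 6). Averaged over genes in each mouse, after centring each gene, the mitochondrial enzymes were at -0.11 ± 0.29 at 20 months and 0.11 ± 0.37 at 6 months (SD, n = 6 each). The peroxisomal enzymes were at -0.04 ± 0.11 at 20 months and 0.04 ± 0.23 at 6 months. Both differences were smaller than the SD of the 6-month mice. The mitochondrial median was -0.36 without 20-month replicate 1 and -0.12 without 6-month replicate 6, so these mice set much of its size. Without the 3 arrays that stood out in heart muscle or T and NK cell markers it was -0.44, with a peroxisomal median of -0.21 and a difference of -0.23. Without the 3 arrays highest in brown adipocyte markers it was -0.13, with a peroxisomal median of -0.12 and a difference of -0.01.

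Within slides the medians of the mitochondrial enzymes were -0.10, -0.15 and -0.45 on slides 1, 2 and 3, and those of the peroxisomal enzymes 0.01, -0.15 and -0.27, each from 2 mice of each age. Of the 35 members, 19, 29 and 33 were negative on those slides. In all, 19 were negative and 2 positive on every slide. Slide 3, scanned on a later day, gave the most negative mitochondrial and peroxisomal medians.

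Mice differed widely in these genes, also within an age. The median SD over the 12 mice, both ages together, was 0.374 for the 17 mitochondrial enzymes, 0.250 for the 6 peroxisomal enzymes and 0.206 for all genes. Mean mitochondrial enzyme signal was 0.43 in 20-month replicate 1 and between -0.43 and -0.09 in the other 20-month mice. At 6 months it was 0.63 in replicate 6 and 0.48 in replicate 3, and between -0.36 and 0.07 in the others. The same 3 mice had the highest mean of the brown adipocyte markers, at 0.67 in 20-month replicate 1, 0.85 in 6-month replicate 6 and 0.71 in 6-month replicate 3. The next mouse was at 0.27 and the lowest at -0.55.

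**Figure D3:**
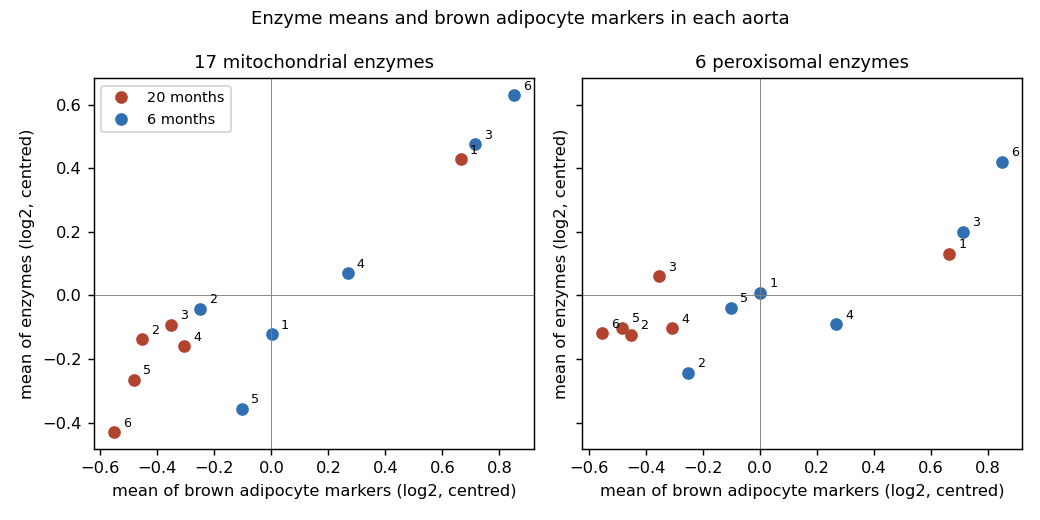
Each point is 1 mouse, numbered by replicate, with the mean of the 9 brown adipocyte markers on the horizontal axis and the mean of the 17 mitochondrial (left) or 6 peroxisomal (right) enzymes on the vertical axis, all log2 values centred on each gene's mean over 12 arrays. The 3 mice at the upper right, between 0.67 and 0.85 in the markers, are highest in both sets of enzymes.

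The brown adipocyte markers hold no member, but *Cox7a1* and *Cox8b* among them are also expressed in muscle. Their mean was -0.25 ± 0.46 at 20 months and 0.25 ± 0.45 at 6 months (SD, n = 6 each). It ranged from -0.55 to 0.67 at 20 months against -0.25 to 0.85 at 6 months. All 9 markers had a negative age change and none was called. The markers were averaged without scaling them to an equal spread. *Elovl3* had an SD of 1.48 over the 12 mice, and the other markers had SDs from 0.33 to 0.67. *Ucp1*, the uncoupling protein that defines brown fat, ran from 6.54 to 8.25 at 20 months against 7.0 to 8.86 at 6 months. The part of the brown adipocyte signal in the members' age changes was not tested.

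To see which members varied with these markers between mice, the slope on the marker mean was fitted over all genes beside age and the heart muscle marker mean. It is given in log2 units of the gene per log2 unit of the marker mean. With it, 24 of 35 members rose and 0 fell, where 8.71% of all genes rose and 5.01% fell. These calls rest on few mice. Without the 2 farthest arrays (6-month replicates 6 and 3), 0 of 35 members and 0 of all genes were called, with 23 members and 2066 genes at an unadjusted p under 0.05. Without the 3 arrays highest in the markers, 0 members and 1 gene were called, with 5 members and 960 genes at an unadjusted p under 0.05. The mitochondrial and peroxisomal median slopes were 0.82 and 0.41 over all arrays, 0.79 and 0.02 without the 2 arrays, and 0.55 and 0.30 without the 3.

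Of the 24 genes that rose, 16 were among the 17 mitochondrial enzymes compared, of which *Cpt1a* was the exception. Of the 6 peroxisomal enzymes 1 rose, *Hsd17b4*. The difference between these shares was not tested, and both come from the same 12 mice. All 11 cycle enzymes, all 3 electron transfer genes and both isomerases rose. *Hadha* had a slope of 1.03 ± 0.10 (SE; adjusted p = 0.00130) and *Hadhb*, which shares its promoter region, 0.94 ± 0.13 (adjusted p = 0.00193). *Decr1* had a slope of 0.91 ± 0.10, and the cycle enzymes together ran from 0.72 to 1.03.

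In the upstream steps, *Acsl5* had a slope of 1.59 ± 0.13 (adjusted p = 8.74e-04), above the slope of every other member. *Acsl3* also rose, at 0.92 ± 0.23 (adjusted p = 0.0231), whereas *Acsl1* and *Acsl4* were at 0.55 ± 0.21 and 0.11 ± 0.12 and did not pass. *Cpt2*, *Slc25a20* and *Crat* rose with slopes of 0.96, 0.93 and 0.83. *Cpt1a* had a slope of -0.30 ± 0.11 (adjusted p = 0.101) and its second probe -0.31. *Cpt1a* was called falling without 6-month replicate 6, at -0.45 ± 0.08 (adjusted p = 0.0129). *Cpt1b*, the muscle and brown fat form of the same enzyme, rose at 0.71 ± 0.12 (adjusted p = 0.00441).

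The peroxisomal *Hsd17b4* rose at 0.55 ± 0.10 (adjusted p = 0.00650). *Acaa1b*, *Ehhadh*, *Acaa1a* and *Decr2* had slopes of 0.58, 0.57, 0.28 and 0.26 that did not pass. The probes of *Acox3* gave -0.13 and 0.29, opposite in sign, and neither passed. *Acot2* rose at 0.74 and *Ppara* at 0.63, while *Acot1* (0.87 ± 0.56), *Pdk4* and *Fabp3* did not pass.

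**Figure D4:**
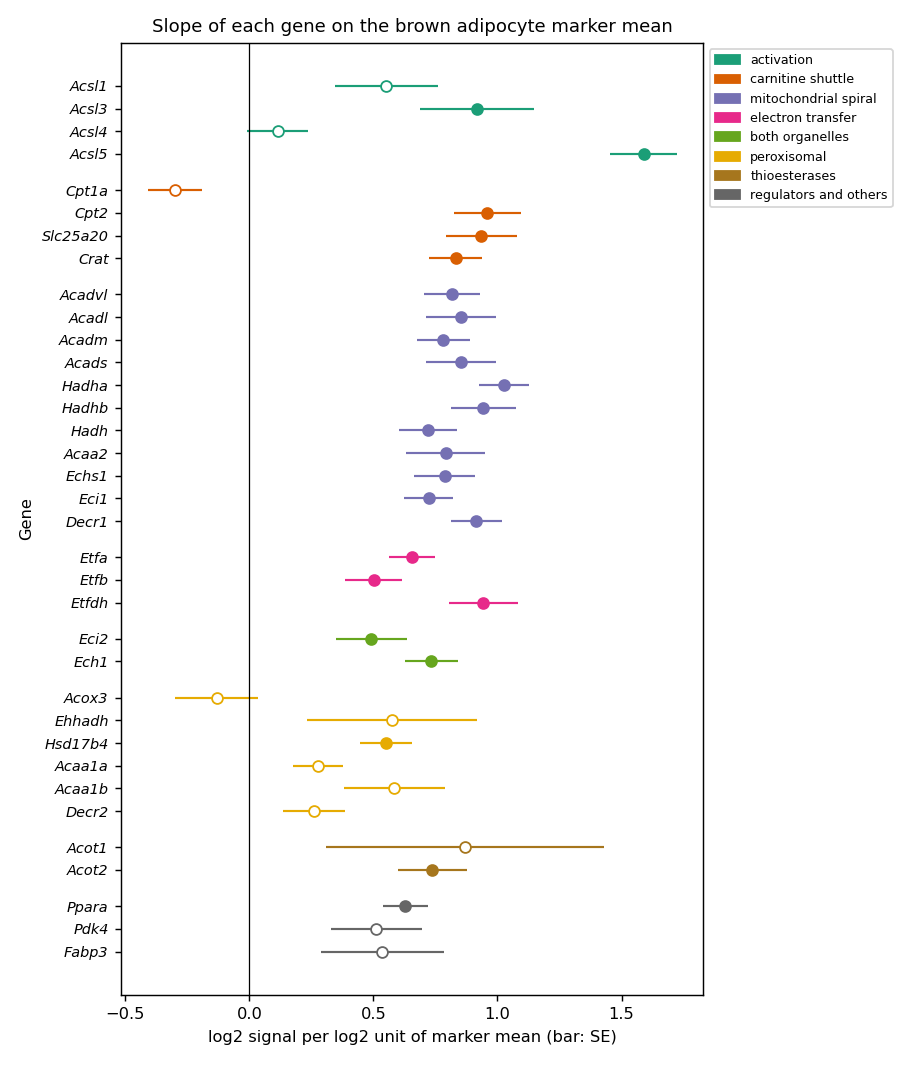
The slope of each of the 35 genes on the brown adipocyte marker mean, beside age and the heart muscle marker mean (log2 per log2, horizontal axis, bar for the standard error), is coloured by role; filled circles passed an adjusted p of 0.05 and open circles did not. The 24 filled circles run up to 1.59 for Acsl5, and only Cpt1a and Acox3 lie below 0.

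Along the same marker mean, the 6 smooth muscle markers had a median slope of -0.51, with *Cnn1* and *Smtn* falling, and the 7 white adipocyte markers 0.36, with *Plin1* rising. Of the 9 brown adipocyte markers, which make up that mean, 7 rose. *Dio2* (0.18, adjusted p = 0.704) and *Adrb3* (0.73, adjusted p = 0.0837) did not pass. With the white adipocyte mean in place of the brown, 0 members and 2 genes were called, and 9 members and 2080 genes had an unadjusted p under 0.05. The median member slope was then 1.13 with 32 of 35 positive, against 0.73 with 33 positive on the brown mean. These slopes are per unit of each marker mean, and the white mean varied less between mice (SD 0.12 at 20 months and 0.16 at 6 months, against 0.46 and 0.45 for the brown mean). On the heart muscle marker mean, 0 of 35 members rose and 0 fell, where 0.114% of all genes rose and 0.0602% fell, and 5 members and 1034 of all genes had an unadjusted p under 0.05. *Pdk4* had a heart slope of -0.32 (adjusted p = 0.0678), and fell at -0.33 without 6-month replicate 2 (adjusted p = 0.0310) and at -0.47 with normexp background correction (adjusted p = 0.00263). The brown and heart marker means had r = 0.40 over the 12 arrays, given as a description.

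With both marker means in the fit, the members' age changes turned to the other side of 0. Of 35 members 30 were positive, with a median of 0.14 over all, 0.15 over the mitochondrial enzymes and 0.02 over the peroxisomal enzymes, against -0.01 over all genes. Without the 3 arrays highest in brown adipocyte markers 26 were positive, and the medians were 0.09 over all, 0.03 over the mitochondrial enzymes and 0.10 over the peroxisomal enzymes, the other way round. None of the 35 was called over all arrays, where 0.0843% of all genes were called higher and 0.0662% lower, 0.151% together. *Acsl5* was at 0.16 ± 0.12 in this fit, *Cpt2* at 0.03 ± 0.12, *Hadha* at 0.29 ± 0.09 (adjusted p = 0.216) and *Crat* at 0.29 ± 0.09 (adjusted p = 0.238). *Acaa1a*, *Decr2*, *Acox3*, *Acsl3* and *Pdk4* were the 5 that were negative. With white in place of brown adipocyte markers, the median over the members was -0.15 with 3 positive. The sign of the members' age change thus depended on which markers were in the fit.

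**Figure D5:**
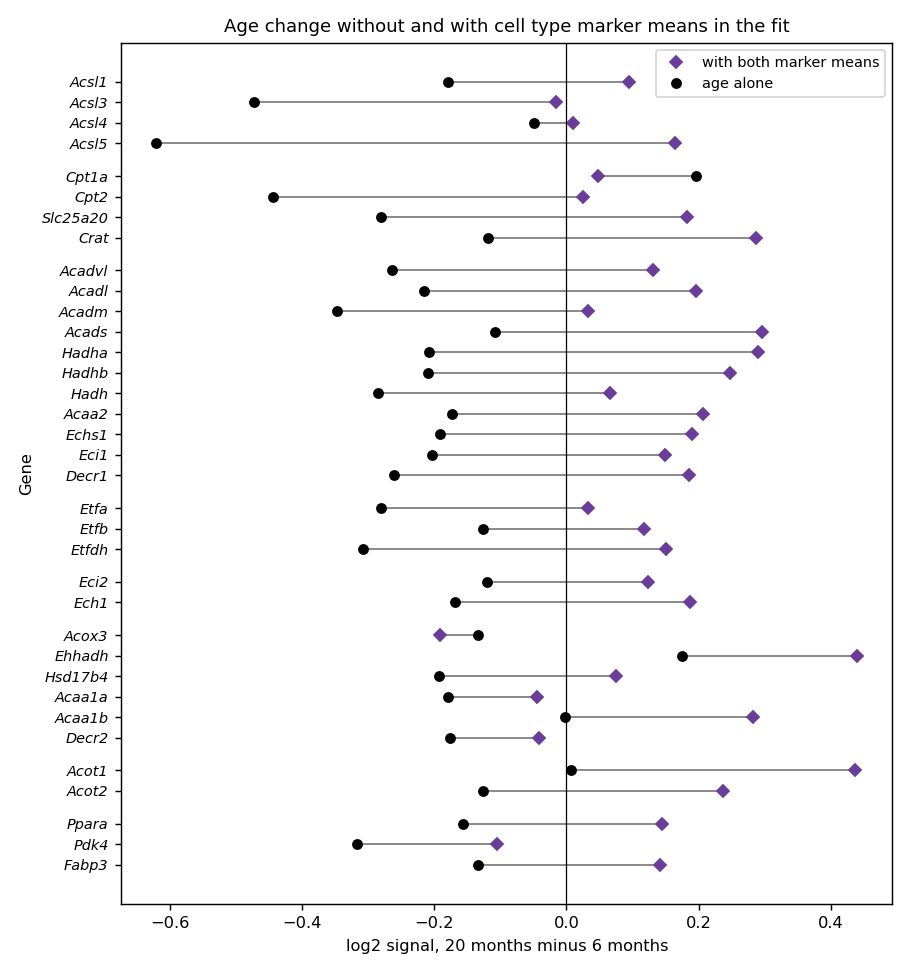
Log2 change of each gene, 20 months minus 6 months (horizontal axis), from the fit with both marker means (diamonds) and from age alone (circles), a line joining the 2 values of a gene. The diamonds of 30 genes lie right of 0, against 3 of the circles.

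Further genes of the pathway were described from lists of other mitochondrial and peroxisomal enzymes and of regulators and uptake proteins. None was called with age. Of 21 other mitochondrial genes 19 were measured, 16 of them negative, with a median of -0.14. *Mcee*, an epimerase on the route of odd-chain fatty acids, gave -0.43 ± 0.15 (adjusted p = 0.429), from signals of 1.78, 1.84 and 2.51 at 20 months, against 2.04, 2.36 and 2.74 at 6 months. *Cpt1b* had 2.89, 3.04 and 3.70 at 20 months, against 3.16, 3.51 and 3.96 at 6 months (-0.39 ± 0.18, adjusted p = 0.611).

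The 20 other peroxisomal genes had a median of -0.15, with 16 negative. *Scp2*, the thiolase and sterol carrier of branched chains, gave -0.34 ± 0.18, *Acox2*, an oxidase, -0.90 ± 0.50, and *Acot3*, a thioesterase, 0.29 ± 0.18. The 17 regulators and uptake proteins had a median of -0.16, with 14 negative. *Cd36*, a fatty acid receptor at the cell surface, gave -0.26 ± 0.20, *Fabp4*, the carrier of adipocytes, -0.28 ± 0.16, and *Angptl4*, an inhibitor of lipoprotein lipase, -0.37 ± 0.27. With the brown adipocyte marker mean, 10 of 19, 10 of 20 and 9 of 17 genes of these lists rose. *Cpt1c*, the neuronal form, fell at -0.37 ± 0.10 (adjusted p = 0.0260), the single fall among them.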

How the data were processed

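Total RNA (RIN 9.0 to 9.6, per the labels) of 12 aortas was hybridised in 1 colour. Signal intensity, as deposited, came from Agilent Feature Extraction 10.7.1.1 with protocol GE1_107_Sep09 on design 028005 (mm9), per the file headers, already corrected for background and not scaled between arrays. The authors' deposited table of log2 values, with each probe's median at 0, served as an alternative. Its method of scaling between arrays is unknown, but all 12 columns had the same mean of 0.0419 (column medians -0.0346 to 0.0120). It called 43 genes higher and 7 lower with age, the same counts as quantile normalization. These alternatives are therefore not separate checks.

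Of 62976 spots, 59305 belonged to genes. Outlier spots were left out, spots of a probe averaged, and log2 intensity taken relative to the array's 75th percentile. Probes well above background on 6 of 12 arrays were kept, and the probe with the highest mean stood for a gene. Of 55630 probes, 26395 were named by accession, 4586 by symbol or synonym and 4203 by the array's name. limma 3.58.1 (lmFit, eBayes) in R 4.3.3 was fitted on 16611 genes, with Benjamini-Hochberg adjustment at 0.05; the fits were tested on simulated data. Members were called by the gene symbol, and every member is named. Alternatives were normexp, quantile or median scaling, other probe filters, slide or replicate as a block, and arrays left out. The members and lists, with the tests and alternatives, were chosen with earlier results of these data known. The number of arrays limits the precision. Promoters came from RefSeq (GRCm38.p6).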

Additional observations from a re-analysis of the deposited data

Results flagged for a closer look

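In 70 groups of 6 values (35 genes at 2 ages), 8 held a mouse that stood apart from its group. For a single group, chance gives about 1 in 20. Most members vary together between mice, so the 70 groups are not separate observations and the count does not measure an excess. The share over all genes is not given here. The figure for each of the 8 is the gap to the nearest mouse divided by the range of the group, past the critical value of Dixon's test. Replicate 1 of the 20-month mice, which is also high in heart muscle (3.23) and brown adipocyte (0.67) markers, accounted for 7 of them. It was the highest of its group for *Acsl5* (0.719, with a log2 signal of 4.26 beside 2.66), *Slc25a20* (0.672, with 3.86 beside 2.92), *Hadha* (0.652, with 4.0 beside 3.23), *Hadh* (0.685, with 6.46 beside 5.86) and *Etfa* (0.747, with 6.96 beside 6.57). It was the lowest for *Cpt1a* (0.683, with 2.15 beside 2.56) and *Pdk4* (0.655, with 4.53 beside 5.35). Replicate 6 of the 6-month mice was the highest of its group for *Acsl1* (0.657, with 7.57 beside 6.62).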

How the results depend on the processing

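Across 203 alternative values of 8 summary results, 198 moved by less than the limits set and 5 moved further; none of them reversed a called value. The median of the mitochondrial enzymes was 0.15 with both marker means as covariates. Values within the limits could also change sign. In that fit the peroxisomal median was 0.02, against -0.16 in the main fit. The mitochondrial minus peroxisomal difference was 0.13, against -0.06. The count of members rising with the brown adipocyte markers was 0 without the 2 farthest arrays, 0 without the 3 highest arrays and 0 with white in place of brown markers, where the median member slope was 1.13 per unit of the white mean, against 0.73 per unit of the brown mean. The median age change beside the marker means was -0.15 with white markers. Leaving out the 3 highest arrays and using white markers were choices made after seeing the data, and the cause was not tested. Leaving out each array in turn, the mitochondrial median ran from -0.36 to -0.12, the peroxisomal median from -0.19 to -0.11, their difference from -0.19 to 0.00073, the count rising with the brown adipocyte markers from 21 to 25, and the median beside the marker means from 0.08 to 0.21. With the replicate number as a block, 0 members were called and the medians were -0.22 and -0.16. Mice with the same number correlated between -0.36 and 0.32. These values show no consistent likeness of such mice, and they cannot tell whether the mice were paired by design. The lowest adjusted p of any member over 26 settings was 0.212 (*Decr2* without 20-month replicate 1). Over 27 settings 7 to 80 of all genes were called with age, 7 with the replicate block, against 54.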
